A study of Mus musculus with 3 samples.

Results

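Glucose transporters and glycolytic enzymes were followed in single cells of mouse blastocysts. The set was named by gene symbol and holds 10 genes, Slc2a1, Slc2a3, Hk1, Hk2, Pfkl, Pfkp, Aldoa, Pgk1, Ldha and Ldhb, of the 23154 genes in the count tables. All 10 had counts and all 10 passed the filter on low counts. The cells came from embryos at embryonic day 3.5 of a mouse line with an H2B-mCherry reporter at Klf2; per the labels, that line served to obtain mCherry-positive embryos, so all groups share the reporter. The embryos were taken at embryonic day 2.5 and kept in static and in shaking culture, and the labels do not tell which cells came from which culture. All 3 libraries, replicates 1 to 3 of 96 cell barcodes each, therefore form 1 group, and no culture, age or genotype contrast was made. Of the 288 barcodes, the 225 with 2000 or more genes with a count were kept as cells. The cells of each library were ranked by summed Krt8 and Krt18 and cut into 3 classes of about equal size: 74 cells high in Krt8+Krt18 were set against 74 cells low in Krt8+Krt18, and 77 cells lay in between. Krt8 and Krt18 encode the keratin pair of the trophectoderm, the outer epithelium of the blastocyst. The question was which paralog of each step the 2 sets of cells use, and at what level.

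Glycolysis takes up glucose through facilitative transporters, traps it by phosphorylation in hexokinase, commits it in phosphofructokinase and splits the sugar in aldolase, after which phosphoglycerate kinase makes ATP and lactate dehydrogenase turns pyruvate into lactate. Early mouse embryos rely on pyruvate and lactate and take up more glucose as the blastocyst forms. The transporter encoded by Slc2a3 is known from the mouse trophectoderm, where it faces the outside, and that encoded by Slc2a1 from the basolateral side and from the inner cell mass (ICM). Several steps have alternative genes: Hk1 and Hk2 for hexokinase, Pfkl and Pfkp for the liver and platelet forms of phosphofructokinase, and Ldha and Ldhb for the subunits of lactate dehydrogenase.

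In GENCODE M21, on the mm10 assembly that the submitters' notes name, Slc2a1 (ENSMUSG00000028645) lies on chromosome 4 from 119108711 to 119137983 and Slc2a3 (ENSMUSG00000003153) on chromosome 6 from 122727809 to 122801640. Hk1 (ENSMUSG00000037012) lies on chromosome 10 from 62268855 to 62379908, Hk2 (ENSMUSG00000000628) on chromosome 6 from 82725025 to 82774454 and Ldha (ENSMUSG00000063229) on chromosome 7 from 46841475 to 46855627. Exons on the opposite strand overlap Slc2a1 (Gm12868), Hk1 (Hk1os), Pfkp (Pitrm1) and Aldoa (Fam57b), and since the strand setting of the counting is not given, reads of such partners cannot be told apart. The name Aldoa is carried by 2 gene records in this annotation. The longest transcripts of the 10 genes run from 1304 bases (Ldhb) to 8681 bases (Pfkp). Among copies that could share reads, the retrogenes Aldoart1 and Aldoart2 had 22 and 85 counts in all cells, against 128158 for Aldoa.

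Promoters are shown for Hk2 and Hk1, the pair whose shares did not overlap between the classes, and for Ldha, whose levels did not overlap, from 250 bases before to 50 after the annotated start, credited to RefSeq on GRCm38.p6. Capitals mark ACGTG or its reverse complement CACGT, the core of the hypoxia response element; the E-box CACGTG contains both and counts as 2 such matches.
Hk2, chr6:82774405-82774704, minus strand: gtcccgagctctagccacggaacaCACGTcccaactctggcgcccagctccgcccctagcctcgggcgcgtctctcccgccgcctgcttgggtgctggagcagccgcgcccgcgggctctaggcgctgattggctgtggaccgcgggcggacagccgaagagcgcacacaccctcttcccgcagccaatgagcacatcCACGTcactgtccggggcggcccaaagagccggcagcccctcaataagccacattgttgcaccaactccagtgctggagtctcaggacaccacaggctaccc
Hk1, first window, chr10:62379859-62380158, minus strand: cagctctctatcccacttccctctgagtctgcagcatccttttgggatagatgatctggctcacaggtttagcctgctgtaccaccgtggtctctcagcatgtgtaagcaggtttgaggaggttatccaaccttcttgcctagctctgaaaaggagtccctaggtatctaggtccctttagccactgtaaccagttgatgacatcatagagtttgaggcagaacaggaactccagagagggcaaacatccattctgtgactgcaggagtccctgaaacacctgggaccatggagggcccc
Hk1, second window, chr10:62340372-62340671, minus strand: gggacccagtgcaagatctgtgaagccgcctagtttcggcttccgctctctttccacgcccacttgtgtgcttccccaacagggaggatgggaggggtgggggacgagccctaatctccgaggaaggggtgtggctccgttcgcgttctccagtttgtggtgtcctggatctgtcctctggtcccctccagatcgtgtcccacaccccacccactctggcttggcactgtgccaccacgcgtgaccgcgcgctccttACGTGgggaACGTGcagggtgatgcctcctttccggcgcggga
Ldha, chr7:46845554-46845853, plus strand: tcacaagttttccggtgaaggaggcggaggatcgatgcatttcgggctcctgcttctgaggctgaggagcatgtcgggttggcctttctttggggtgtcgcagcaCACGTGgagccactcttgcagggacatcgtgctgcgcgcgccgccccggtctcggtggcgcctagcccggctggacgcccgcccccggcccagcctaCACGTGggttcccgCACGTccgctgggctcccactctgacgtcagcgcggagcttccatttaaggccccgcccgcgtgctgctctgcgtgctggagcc
The core had 2 matches in the Hk2 window, 0 and 2 in the first and second Hk1 window and 5 in the first Ldha window, where 2 E-boxes gave 4 of them. The second Ldha window, on chromosome 7 from 46846832 to 46847131 and not shown, had 0 matches of the core, the E-box and the GC box. It was present in 7 of the 13 windows found for 9 of the 10 genes, and in 19.6% of all 32851 windows of that table. An E-box was present in 1 of the 13 windows and in 7.15% of all. The letters GGAATG or CATTCC, the core of the TEAD motif, were in 1 of the 13 (Aldoa) and in 14.7% of all. The GC box GGGCGG or CCGCCC was in 8 of the 13 and in 35.7% of all. Aldoa windows 2 and 3 overlap each other. A match is a description and no site, and Slc2a3 had no entry.

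The 3 libraries held 30573711, 27610866 and 54444536 counts, of which the cells kept 99.7% to 99.8%. Cells high in Krt8+Krt18 had median totals of 316170, 498144 and 635141 counts in replicates 1 to 3, against 286484, 411794 and 501074 in cells low in Krt8+Krt18. The libraries used the same 96 barcode numbers. One stretch stood apart: in replicate 1, 22 of the 27 low cells carried barcode numbers 33 to 64. These 22 cells had a summed level of 6 oocyte markers of 246 CPM (counts scaled to the total of the cells pooled), against 9.33 and 23.3 CPM in the low cells of barcodes 1 to 32 and 65 to 96 of the same library. That sum was mostly 1 gene: in all 27 low cells of replicate 1, Zp3 had 204 of the 218 CPM of the list. The sum of 7 cumulus or granulosa markers was 161 CPM in the 22 cells. It was 31.1 and 4.65 CPM in the low cells of barcodes 1 to 32 and 65 to 96. Here too 1 gene prevailed: in all 27 low cells of replicate 1, Cyp11a1 had 131 of the 144 CPM of the list. The 22 cells also had 244 CPM of Ldhc, the testis form of lactate dehydrogenase, against 1.55 and 1.16 CPM in the low cells of those other barcodes. The 6 middle cells of barcodes 33 to 64 had 935 CPM of Ldhc and 792 CPM of the oocyte list, so neither was particular to low cells. No label says what these barcode numbers stand for. The fits and pair shares are therefore given with all cells and without the 29 kept cells of barcodes 33 to 64 of replicate 1, a choice made after the data had been seen, whereas values per cell, correlations and the series over 3 keratin ranges are given with all cells only. Without that stretch 54 cells of replicate 1 remain, and their classes were drawn anew, 18 high and 18 low. Only 2 and 3 of the earlier low cells lay in barcodes 1 to 32 and 65 to 96. Most of the 18 low cells were therefore middle cells in the classes with all cells, and they reach higher keratin levels.

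The keratins chose the classes and are described only. Their summed level ran from 1285, 2235 and 3982 CPM upwards in high cells and up to 147, 531 and 376 CPM in low cells of replicates 1 to 3. The first middle cells lay at 1083, 2205 and 3190 CPM below the upper limit and at 153, 567 and 379 CPM above the lower one. Within 1.5-fold of the upper limit lay 12, 13 and 19 cells and within 1.5-fold of the lower limit 17, 12 and 11 cells, so the classes are ranges and not cell types. Other markers went with them: 14 further trophectoderm markers summed to 1564, 3609 and 4726 CPM in high and 575, 399.9 and 335 CPM in low cells, and 11 of the 14 were higher in the high cells of all 3 libraries. The 10 epiblast and ICM markers, of which Sox2 was listed at 0, summed to 379.8, 134 and 188 CPM in high and 1016, 1259 and 1057 CPM in low cells, and 7 of the 10 were lower in the high cells of all 3 libraries. The 11 primitive endoderm markers summed to 436, 2175 and 935 CPM in high and 322, 653 and 477 CPM in low cells, although 6 of the 11 were lower and 1 was higher in the high cells of all 3 libraries. That 1 was Dab2, which alone had 311, 2001 and 819 CPM in high and 64.8, 127 and 54.0 CPM in low cells. Dab2 thus carried the higher sum of the high cells. Of other cell types, the oocyte list (6 genes, none at 0) reached 10.1 to 21.4 CPM in high and 9.40 to 218 CPM in low cells, and the cumulus or granulosa list (7 genes, Foxl2 and Inha at 0) 8.20 to 45.6 and 11.6 to 144 CPM. Over all cells the oocyte list had 5955 counts of Zp3 and 777 of Gdf9, but 53 of Zp2, 16 of Oosp1, 8 of Zp1 and 3 of Bmp15. The cumulus or granulosa counts were mostly of Star (2384) and Cyp11a1 (1924). The blood list (5 of 7 genes at 0, the globins and Lyz2) stayed at 4.12 to 8.56 CPM in high and 6.98 to 31.0 CPM in low cells, the oviduct list (5 genes, Krt5 at 0) at 2.67 to 17.8 and 2.68 to 10.9 CPM, and the fibroblast list (5 genes, Col3a1 and Lum at 0) at or below 1.40 and 1.56 CPM. Ribosomal protein genes took 21.1%, 4.57% and 13.6% of the counts of high and 7.72%, 4.79% and 16.0% of those of low cells. The part of these markers and shares in the results was not tested.

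Slc2a3, which encodes a high-affinity glucose transporter, had a higher pooled level in high cells in each library. Pooled over the cells of a class, its level was 260.3, 1271 and 502 CPM in high cells, against 204, 226 and 62.5 CPM in low cells of replicates 1 to 3, and these ranges did not overlap. The fitted log2 fold change, high over low, was 1.92 (SE 0.70), and it did not pass (edgeR quasi-likelihood fit over all genes, Benjamini-Hochberg adjusted p = 0.356). One low cell of replicate 1 gave 61.5% of the Slc2a3 counts of its class, and without that cell the level there was 89.2 CPM. Without barcodes 33 to 64 of replicate 1 the level in that library was 303 CPM in high and 53.6 CPM in low cells, and Slc2a3 was 6.22-fold higher in high cells (log2 fold change 2.64, SE 0.19; edgeR, adjusted p = 0.000219). Slc2a1, which encodes the widespread basal glucose transporter, had 16.8, 144 and 47.5 CPM in high cells and 8.19, 166 and 53.6 CPM in low cells. Its libraries spread far more than its classes, at a log2 fold change of 0.14 (SE 0.59; edgeR, adjusted p = 0.952) with all cells and -0.35 (SE 0.26; edgeR, adjusted p = 0.538) without those barcodes.

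**Figure D1:**
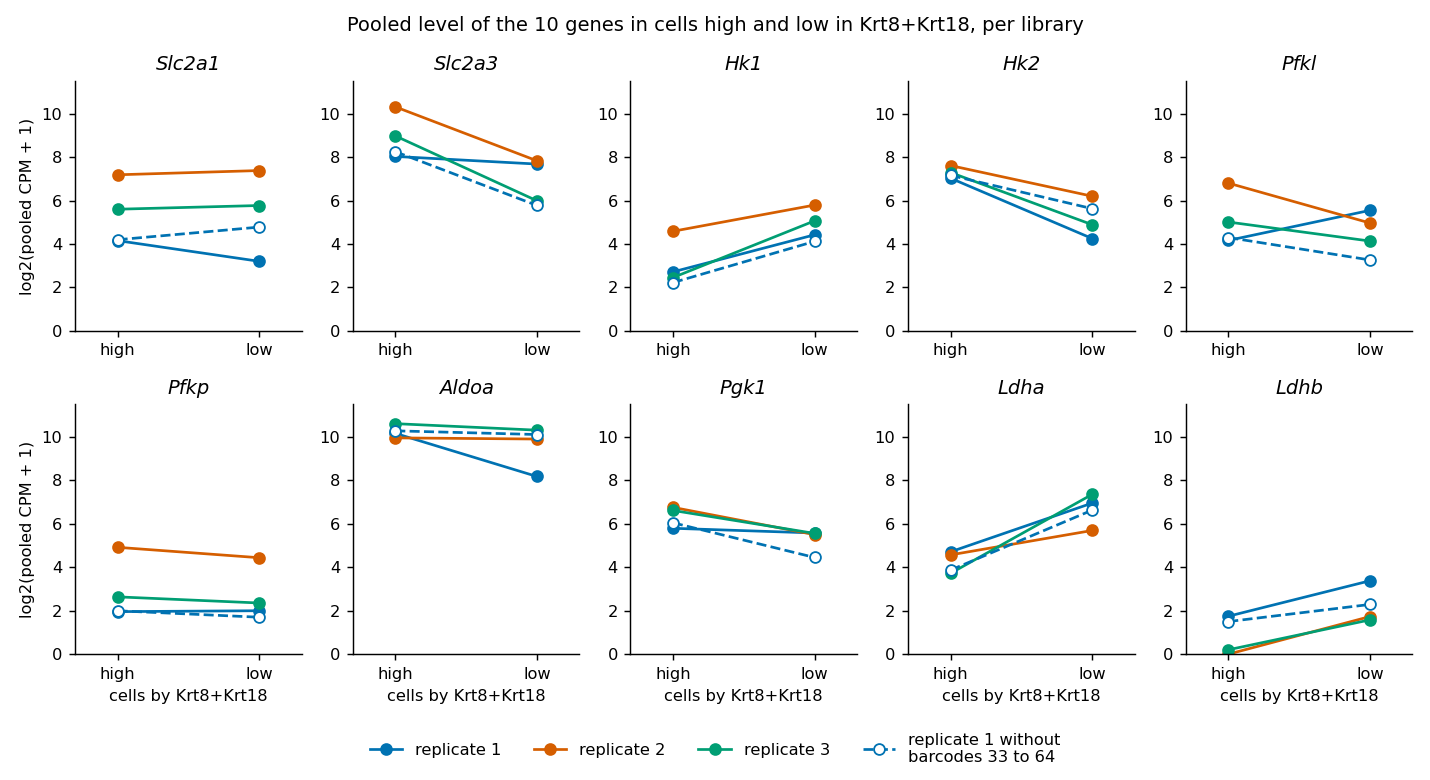
Pooled level of each gene, as log2(CPM + 1), in cells high (left) and low (right) in Krt8+Krt18, with 1 line per library and a dashed line for replicate 1 without barcodes 33 to 64. Slc2a3, Hk2 and Pgk1 lay higher and Ldha lower in the high cells of each library without overlap. The dashed line is drawn on classes cut anew without that stretch. Its low cells have 1106 CPM of Aldoa, between the 957 and 1271 CPM of the other libraries.

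Hexokinase showed opposite values for its paralogs. Hk2, a form that is common in glucose-avid cells, had 129, 194 and 155 CPM in high cells, against 18.0, 72.4 and 28.6 CPM in low cells, with no overlap. Hk1, the widely used form, had 5.56, 23.0 and 4.48 CPM in high cells and 20.4, 54.4 and 32.5 CPM in low cells. It was lower in the high cells of each library, but the class ranges overlapped through replicate 2. With all cells neither passed: the log2 fold change of Hk2 was 2.17 (SE 0.61; edgeR, adjusted p = 0.217) and that of Hk1 -2.06 (SE 0.69; edgeR, adjusted p = 0.311). Without barcodes 33 to 64 of replicate 1, Hk2 was 3.42-fold higher in high cells (log2 fold change 1.77, SE 0.29; edgeR, adjusted p = 0.0106) and Hk1 was 4.31-fold lower (log2 fold change -2.11, SE 0.50; edgeR, adjusted p = 0.0478, close to the threshold of 0.05). The antisense gene Hk1os had 83.8 CPM in the 22 low cells of that stretch, where Hk1 had 20.2 CPM, and both genes lie on the same stretch of chromosome 10. In the other low cells of replicate 1 Hk1os had 1.55 and 2.33 CPM. The 6 middle cells of that stretch had 348 CPM of Hk1os and 3.63 CPM of Hk1.

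Pfkl and Pfkp encode phosphofructokinase, the committing step. Pfkl had 16.9, 111 and 31.2 CPM in high cells and 45.8, 30.2 and 16.6 CPM in low cells. Replicate 1 went against the other 2 libraries, and 84.9% of its low-cell counts came from 1 cell, without which the level was 7.62 CPM. The log2 fold change was 0.45 (SE 0.82; edgeR, adjusted p = 0.884) with all cells and 1.28 (SE 0.37; edgeR, adjusted p = 0.0874) without barcodes 33 to 64 of replicate 1, and neither passed. Pfkp was low everywhere, at 2.89, 29.3 and 5.23 CPM in high and 3.0, 20.7 and 4.12 CPM in low cells. Its classes could not be separated at this depth (log2 fold change 0.20, SE 0.78; edgeR, adjusted p = 0.95), nor without barcodes 33 to 64 of replicate 1 (0.39, SE 0.61; adjusted p = 0.787). In each high and low class from 40.5% to 67.8% of its counts came from 1 cell.

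Aldoa, which encodes the main aldolase, had 1147, 993 and 1565 CPM in high cells and 289, 957 and 1271 CPM in low cells. The low cells of replicate 1 lay apart, at 198 CPM in barcodes 33 to 64, against 934 and 957 CPM in barcodes 1 to 32 and 65 to 96. The log2 fold change was 0.70 (SE 0.57; edgeR, adjusted p = 0.725) with all cells and 0.14 (SE 0.11; edgeR, adjusted p = 0.553) without those barcodes. Pgk1, which encodes phosphoglycerate kinase, had 54.6, 107 and 97.1 CPM in high cells and 46.8, 44.4 and 46.2 CPM in low cells, with no overlap. It did not pass with all cells (log2 fold change 0.79, SE 0.60; edgeR, adjusted p = 0.704), and 1 low cell of replicate 1 gave 75.6% of the counts there. With barcodes 33 to 64 of replicate 1 left out it was 2.45-fold higher in high cells (log2 fold change 1.295, SE 0.27; edgeR, adjusted p = 0.0322).

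Lactate dehydrogenase closes the pathway. Ldha, the subunit that dominates in glycolytic tissues, had 25.2, 22.8 and 12.2 CPM in high cells, against 123, 50.8 and 163 CPM in low cells, with no overlap. Its log2 fold change was -2.47 (SE 0.70; edgeR, adjusted p = 0.225) with all cells, which did not pass. With barcodes 33 to 64 of replicate 1 left out it was 6.17-fold lower in high cells (log2 fold change -2.62, SE 0.48; edgeR, adjusted p = 0.0165), with 13.7 CPM in high and 98.3 CPM in low cells of replicate 1. Ldhb, the subunit of oxidative tissues, was close to the limit of detection. It had 22, 0 and 3 counts in high cells and 116, 23 and 28 counts in low cells, and 54.3%, 91.3% and 96.4% of the low-cell counts came from 1 cell in each library. The 0 of replicate 2 allows up to 0.300 CPM (3 counts, counting error only), so a fitted fold of Ldhb depends on the prior count of the fit and is no bound. Ldhb did not pass with all cells (edgeR, adjusted p = 0.427) nor without barcodes 33 to 64 of replicate 1 (adjusted p = 0.324).

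**Figure D2:**
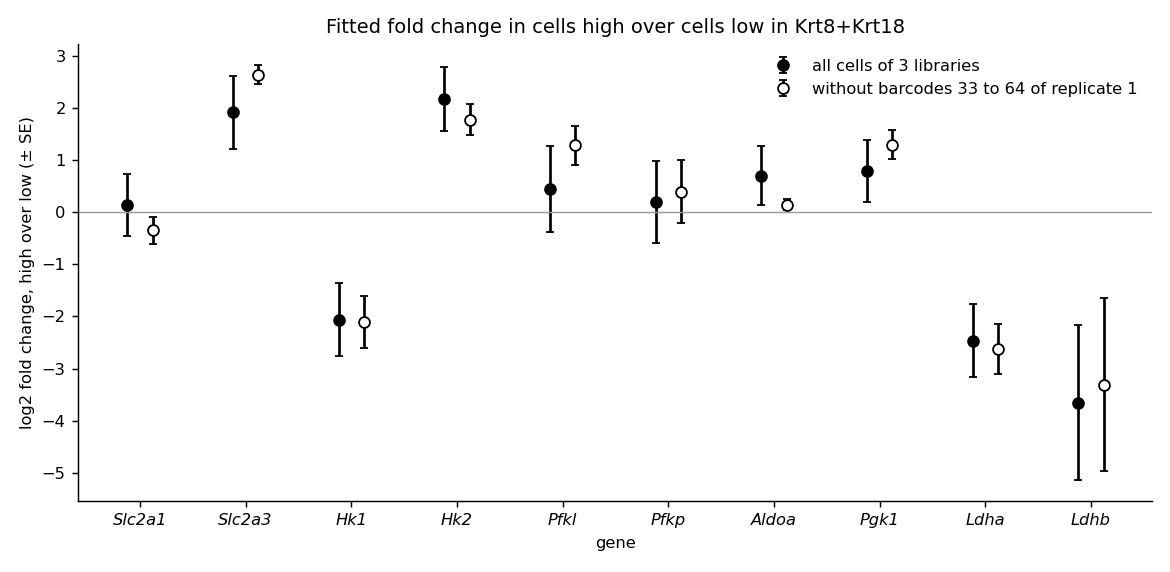
Fitted log2 fold change of each gene, cells high over cells low in Krt8+Krt18, with its standard error, with all cells (filled) and without barcodes 33 to 64 of replicate 1 (open). Values above 0 mean a higher level in high cells; Slc2a3 and Hk2 lie above 0 and Hk1 and Ldha below 0 in both fits, Slc2a1 changes side, and the value of Ldhb rests on a class with 0 counts in replicate 2 and is no bound.

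With all cells, 0 of the 10 genes passed in edgeR, where 19 of 12154 genes or 0.156% passed over all, 17 (0.14%) higher and 2 (0.0165%) lower in high cells. Of the 10 genes, 5 had an unadjusted p under 0.05, against 10.3% of all genes. DESeq2 called 4 of the 10 (Hk2 higher; Hk1, Ldha and Ldhb lower) and 883 genes or 7.27% over all. Class ranges did not overlap for 4 of the 10 genes, 3 higher and 1 lower in high cells, and for 12.2% of all genes tested (6.61% higher and 5.57% lower). Without barcodes 33 to 64 of replicate 1, 5 of the 10 passed, Slc2a3, Hk2 and Pgk1 higher and Hk1 and Ldha lower, and 649 of 11796 genes or 5.5% passed over all (3.31% higher and 2.2% lower). Without the whole of replicate 1, Slc2a3 (log2 fold change 2.75; edgeR, adjusted p = 0.0016) and Hk2 (1.935; adjusted p = 0.0308) passed, with 3.35% of all genes. Nothing in the labels ties the 3 libraries to separate cultures or animals, so p-values speak only of how these libraries spread, and that spread may be technical. Over all alternatives run, the adjusted p ran from 0.000219 to 0.985 for Slc2a3, from 0.0095 to 0.917 for Hk2 and from 0.0322 to 0.985 for Pgk1. It ran from 0.0291 to 0.985 for Hk1 and from 0.00388 to 0.985 for Ldha.

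Paralog choice was followed as the share of 1 gene in the counts of its pair, not divided by transcript length, since 3' ends were captured. Hk2 made up 95.9%, 89.4% and 97.2% of the Hk1 and Hk2 counts in high cells of replicates 1 to 3, against 46.8%, 57.1% and 46.8% in low cells. The classes did not overlap, and the mean difference was 43.9 points ± 10.1 (SD, n = 3; exact two-sided sign-flip permutation test, p = 0.25, the smallest that 3 libraries allow). The share in replicate 1 was 97.5% in high and 74.7% in low cells once its barcodes 33 to 64 were left out, a difference of 22.8 points against 49.0 points with all cells. These shares are pooled, and 1 cell gave 43.3%, 38.3% and 30.2% of the Hk1 counts of low cells in replicates 1 to 3. In high cells 1 cell gave 38.5%, 39.1% and 57.3%. Per cell with a count of either gene, the median Hk2 share was 98.6%, 100% and 100% in high cells. In low cells it was 66.7%, 100% and 89.6%, so the medians of replicate 2 did not differ.

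Slc2a3 made up 93.9%, 89.8% and 91.4% of the counts of both transporters in high cells, against 96.1%, 57.8% and 53.8% in low cells. Replicate 1 differed from the other 2, and the mean difference of 22.5 points ± 21.5 (SD, n = 3) gave p = 0.50 in the same exact permutation test. When barcodes 33 to 64 of replicate 1 were left out, its share there was 94.6% in high and 67.0% in low cells, and Slc2a3 then took the larger share in the high cells of all 3 libraries. Pfkp made up 14.6%, 20.9% and 14.3% of the phosphofructokinase pair in high and 6.16%, 40.7% and 19.9% in low cells, with libraries on both sides (exact permutation p = 0.75, n = 3). In replicate 1 without barcodes 33 to 64 the Pfkp share was 13.8% in high and 20.8% in low cells, so that it was then lower in the high cells of all 3 libraries. Ldhb made up 8.53%, 0% and 1.22% of the lactate dehydrogenase pair in high and 7.09%, 4.37% and 1.20% in low cells (exact permutation p = 1, n = 3), and 11.8% in high and 3.81% in low cells of replicate 1 without that stretch. Exact 95% binomial intervals, which cover counting error only, were within 5 points of every share of the transporter and hexokinase pairs. For the Pfkp share they ran, for example, from 9.84% to 20.5% around 14.6% in the high cells of replicate 1. The intervals take every count as an independent draw. Whether molecular tags were collapsed is not known, and counts cluster in cells, so the intervals may be too narrow.

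**Figure D3:**
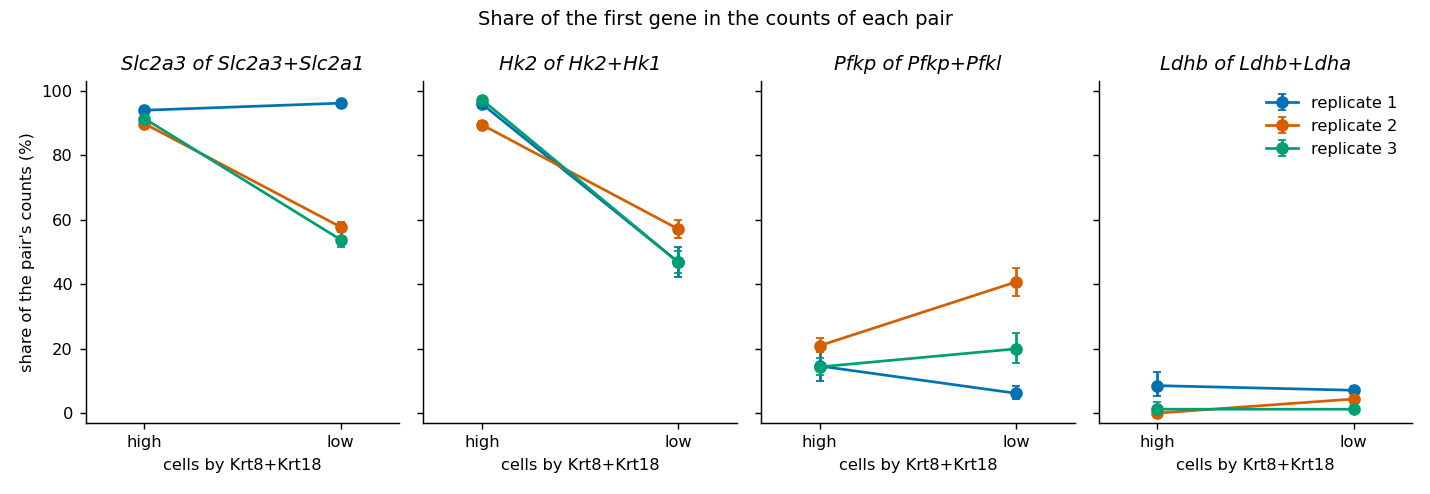
Share of the first-named gene in the counts of its pair (percent), in cells high (left) and low (right) in Krt8+Krt18, with 1 line per library and exact 95% binomial intervals. The Hk2 share lies between 89.4% and 97.2% in high cells and between 46.8% and 57.1% in low cells, while the Slc2a3, Pfkp and Ldhb shares cross. The Slc2a3 share of replicate 1 is 93.9% in high and 96.1% in low cells, against the direction of the other libraries.

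Over the 3 ranges of keratin level the pooled values of Hk2 were 39.6 ± 28.8, 90.3 ± 72.4 and 159.6 ± 32.7 CPM in low, middle and high cells (SD, n = 3 libraries). Those of Ldha were 112 ± 57.0, 76.6 ± 14.1 and 20.1 ± 6.92 CPM in the same order, and its middle cells overlapped the low but not the high cells. Slc2a3 had 164 ± 88.8, 585 ± 737 and 678 ± 528 CPM, with 1430 CPM in the middle cells of replicate 2 against 75.7 and 248 CPM in those of replicates 1 and 3. The Hk2 share was 50.2% ± 5.94, 76.6% ± 5.51 and 94.2% ± 4.16 from low to high (SD, n = 3).

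In single cells, Slc2a3 had a count in 100% of the 74 high and in 68 of the 74 low cells, with medians of 218, 1032 and 389 CPM in high and 59.0, 33.5 and 45.3 CPM in low cells of replicates 1 to 3. Hk2 had a count in 71 high and 62 low cells, with medians of 113, 177 and 149 CPM in high and 7.98, 57.6 and 22.3 CPM in low cells. Both medians were higher in the high cells of each library, although single cells of the classes overlapped widely. Thinned to 20000 counts per cell, 88.9% of high and 42.7% of low cells had a count of Hk2 (means of 3 libraries), and the values for Ldha were 17.9% and 48.2%. Hk1 had a count in 30 high and 42 low cells and Ldha in 43 and 54. For Hk1 this was 14 of 27 high and 21 of 27 low cells in replicate 1. It was 8 of 21 in both classes of replicate 2, and 8 of 26 high and 13 of 26 low cells in replicate 3. Counts of both hexokinases stood in 30 high and 38 low cells, Hk2 alone in 41 and 24, Hk1 alone in 0 and 4, and neither in 3 and 8. Hk2 had more counts than Hk1 in 94.4% of the high and 66.7% of the low cells with a count of either gene. Slc2a3 had more counts than Slc2a1 in 94.6% of the high and 72.6% of the low cells with a count of either transporter. Whether a missing count means a missing transcript cannot be read from such sparse values.

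**Figure D4:**
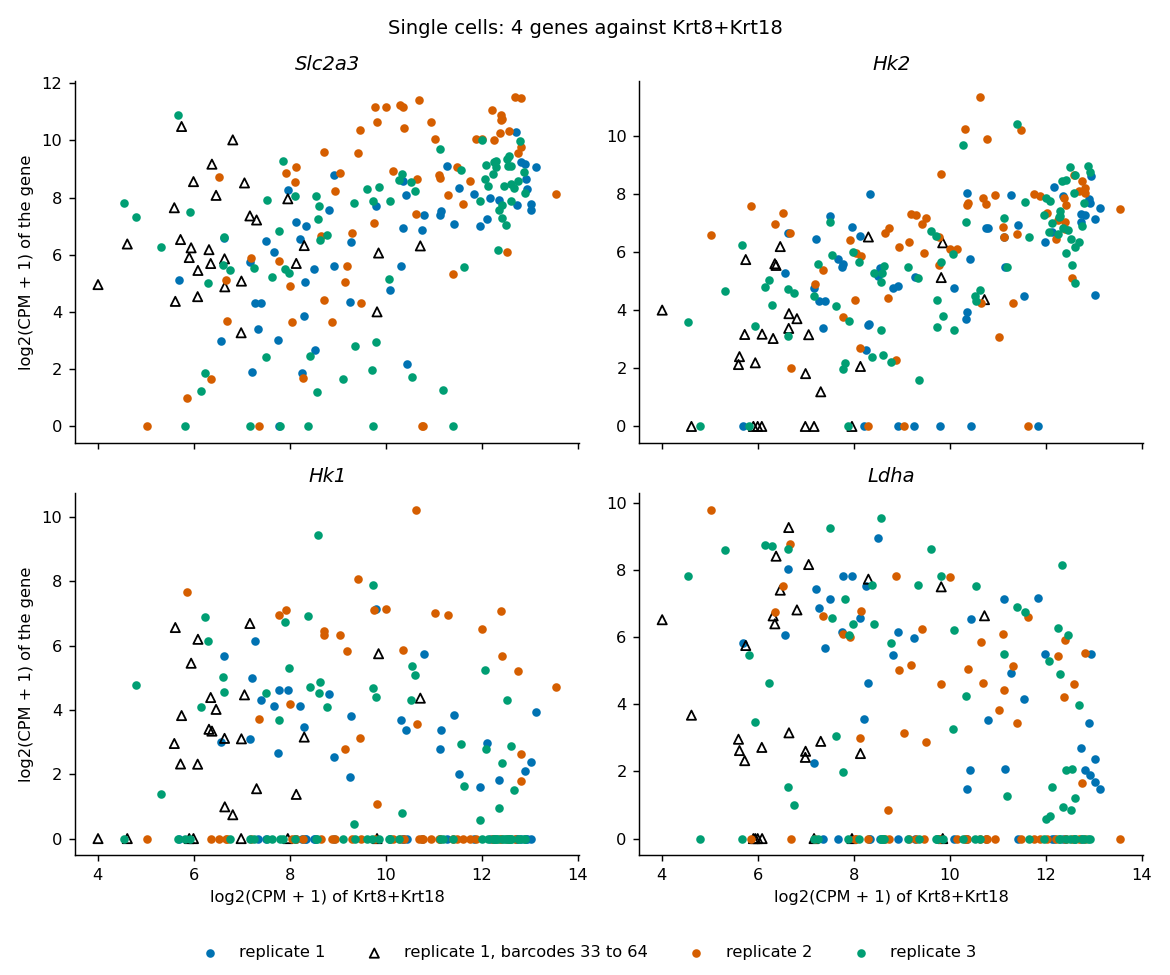
Each point is 1 cell: the level of Slc2a3, Hk2, Hk1 or Ldha against that of Krt8+Krt18, both as log2(CPM + 1), coloured by library, with open triangles for barcodes 33 to 64 of replicate 1. Slc2a3 and Hk2 lie higher at high keratin levels, most triangles lie at low keratin levels, and many cells have no count of Hk1 or Ldha.

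Over the cells of a library (83, 64 and 78 cells), the rank correlation with Krt8+Krt18 ranged from 0.47 to 0.68 for Hk2 and from 0.38 to 0.56 for Slc2a3, and from -0.31 to -0.23 for Ldha. For Hk1 it ranged from -0.25 to -0.03. These are descriptions: the points share their library, and both axes share the total count of the cell. Among 5896 genes with a count in at least 0.5 of the cells of each library, Slc2a3 was most alike to Ptges (mean rank correlation 0.60 over 3 libraries), which encodes a prostaglandin E synthase, Gm2a (0.56), a lysosomal lipid-binding protein, and Lrp2 (0.55), the endocytic receptor megalin. Hk2 was most alike to Fabp3 (0.56), a fatty acid binding protein, Lrrfip1 (0.54) and the nonmuscle myosin Myh10 (0.54). Aldoa was most alike to the translation factor Eef1a1 (0.58), the actin-binding cofilin Cfl1 (0.58) and the actin Actg1 (0.56). Slc2a3 and Hk2 had a mean rank correlation of 0.40 with each other, and Slc2a3 and Slc2a1 one of -0.04.

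Of 77 other genes of glucose metabolism in 5 lists, 62 were tested and 0 passed with all cells, where 7 had an unadjusted p under 0.05. Their median log2 fold change was 0.32, against -0.01 over all genes tested. Without barcodes 33 to 64 of replicate 1, 6 were higher and 2 lower of 60 tested, at a median of -0.02 against -0.0041 over all genes, where 3.31% of genes passed as higher and 2.2% as lower. Of the 32 further glycolysis genes, 23 were then tested, and Tpi1, Eno1 and Eno3 were higher and Tigar was lower. Triose phosphate isomerase, Tpi1, was 2.35-fold higher (log2 fold change 1.23, SE 0.26; edgeR, adjusted p = 0.0304), with 275, 297 and 592 CPM in high and 32.2, 118 and 162 CPM in low cells when all cells were kept. The enolase Eno1 was 1.78-fold higher (log2 fold change 0.83, SE 0.20; edgeR, adjusted p = 0.0498), just inside the threshold, against 0.60 with all cells (SE 0.54; adjusted p = 0.755). Gapdh (log2 fold change 0.34, SE 0.25; edgeR, adjusted p = 0.512), the dehydrogenase of the middle of the pathway, and the pyruvate kinase Pkm (-0.13, SE 0.11; adjusted p = 0.577) did not pass there. With all cells Gapdh was at 1.08 (SE 0.70; edgeR, adjusted p = 0.646) and Pkm at 0.53 (SE 0.61; adjusted p = 0.811). Gapdh and other abundant enzymes have processed copies in the mouse genome, and no source used here tells how shared reads were counted.

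None of the 11 tested genes of lactate and pyruvate handling and none of the 6 of the pentose phosphate pathway passed in either fit (0 called in each; 2 and 1 had an unadjusted p under 0.05 without barcodes 33 to 64 of replicate 1, 0 and 0 with all cells; 19.4% of all genes had one without those barcodes). Of 11 tested genes of gluconeogenesis and glycogen, Pgm1 and Ugp2 were higher and Pgm2 lower without those barcodes; these were named after their values were seen. Pgm1, a phosphoglucomutase gene, had 56.8, 291 and 110.5 CPM in high cells and 2.27, 21.7 and 1.14 CPM in low cells with all cells, at a log2 fold change of 4.85 (SE 0.83) that missed the threshold (edgeR, adjusted p = 0.0645) and of 4.64 (SE 0.59; edgeR, adjusted p = 0.00328) without those barcodes. Ugp2, which makes the glucose donor for glycogen, had 67.3, 470 and 252 CPM in high and 7.71, 92.1 and 43.3 CPM in low cells, and was 4.39-fold higher without those barcodes (edgeR, adjusted p = 0.00272). Pgm2 was 3.09-fold lower without those barcodes (edgeR, adjusted p = 0.0137), and with all cells its log2 fold change was -1.07 (SE 0.72; adjusted p = 0.664). The symbols Pgm1 and Pgm2 are each listed as a synonym of the other gene in RefSeq, and the files give symbols only, so which gene each row counts is not settled. Of 9 tested regulators only Egln1, an oxygen-sensing prolyl hydroxylase, passed, as 2.37-fold higher in high cells without those barcodes (edgeR, adjusted p = 0.032). With all cells Egln1 had 74.1, 167 and 176 CPM in high and 204, 52.5 and 68.9 CPM in low cells, replicate 1 going the other way, at a log2 fold change of 0.54 (SE 0.79; edgeR, adjusted p = 0.854).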

How the data were processed

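The 10 genes, the pathway lists and the tests were chosen with earlier results of these data known. The authors deposited raw counts for each gene in each barcode. Per the submitters' processing notes CASAVA 1.8, HISAT2, HTSeq and mm10 were used; which annotation and strand setting they took, and whether molecular tags were collapsed, no source used here says. Per the labels' protocols, cells were picked by hand, reverse transcription added a barcode and a molecular tag of 8 nt each, and 3' ends were captured after 17 and 5 PCR cycles. No doublet caller was run.

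Cells were ranked in each library by summed Krt8 and Krt18 CPM, and counts were summed over the highest and the lowest of 3 equal classes, so the library was the replicate. Both classes of a pair come out of the same library, which is where the pairing comes from, and the library was a block. Genes were kept by filterByExpr, scaled by TMM and tested with edgeR 4.0.16 (quasi-likelihood; R 4.3.3) with Benjamini-Hochberg adjustment over all genes at a threshold of 0.05; Krt8 and Krt18 were left out of counts of calls. DESeq2 1.42.0 and limma 3.58.1 served as alternatives. The fit was also run on simulated counts of a fixed spread and without a stretch of cells set apart. Since these data differ from that setting, the simulation does not show how the fit behaves on them. CPM are pooled values scaled to the class total, without TMM. Named genes were the 10 members, Gapdh, Eno1, Pkm and Tpi1, pathway genes that passed, and the 3 genes most alike to a member; genes that passed only in the fit without barcodes 33 to 64 of replicate 1 were named after their values were seen.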

Additional observations from a re-analysis of the deposited data

Results flagged for a closer look

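The 63 barcodes under 2000 genes took no part in the comparisons, and they still held counts of the 10 genes. In each library these counts exceeded 3, the limit chosen for listing them here. These were 91 counts in 13 barcodes of replicate 1, 258 in 32 barcodes of replicate 2 and 325 in 18 barcodes of replicate 3, mostly of Aldoa and Slc2a3. Their summed level was 1926, 2793 and 1805 CPM, against 1142, 2460 and 2080 CPM in the cells that were kept, and they held 0.155% to 0.335% of the counts of a library.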

How the results depend on the processing

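The number of genes called moved with nearly every choice. Against 19 with all cells it was 90 at a split by the median, 52 with classes drawn on other trophectoderm markers, 59 with classes drawn within sets of 32 barcodes, 0 with 4000 genes per cell (1237 genes at an unadjusted p under 0.05), 225 without cells of very high total, 88 with thinned cells, 649 without barcodes 33 to 64 of replicate 1, 101 with each cell weighted equally in limma, 2 with DESeq2 size factors, 165 without a filter, 883 in DESeq2 and 0 without the replicate block (1261 at an unadjusted p under 0.05). Leaving out 1 library gave 17 to 406. The share of calls that were higher in high cells was 89.5% with all cells, 100% with DESeq2 size factors, 42.2% in DESeq2 and 31.2% without replicate 2 (44 higher and 97 lower), where the balance of calls turned. Of the 10 genes, 0 passed with all cells, 3 without cells of very high total, 1 with thinned cells, 5 without barcodes 33 to 64 of replicate 1, 1 with equal weights, 4 in DESeq2 and 0 to 2 when 1 library was left out.

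Slc2a3 kept its direction in 15 alternatives and passed without cells of very high total (log2 fold change 2.44) without barcodes 33 to 64 of replicate 1 (2.64) and without replicate 1, with values of 1.42 to 2.75 when 1 library was left out. Hk2 kept its direction in 15 and passed in 5: without cells of very high total (2.15), without those barcodes (1.77), with equal weights (2.39), without replicate 1 and in DESeq2 (2.12), with 1.935 to 2.57 when 1 library was left out. Ldha kept its direction in 15 and passed without cells of very high total (-2.40), with thinned cells (-3.01), without those barcodes (-2.62) and in DESeq2 (-2.52), with -3.09 to -1.72 when 1 library was left out. Hk1 kept it in 14 and passed without those barcodes (-2.11) and in DESeq2 (-2.11), with -2.44 to -1.55 when 1 library was left out. Ldhb passed in DESeq2 (fitted value -3.85, adjusted p = 0.0498), a value that rests on 22, 0 and 3 counts in high cells and is no bound. Pgk1 passed only without those barcodes (1.295). With those barcodes kept, Pgk1 had 0.57 to 1.18 when 1 library was left out. It had 0.29 with classes within sets of barcodes, 0.069 with thinned cells and 0.039 with equal weights. Hk1 and Ldhb were not tested with thinned cells.

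Slc2a1, not called in any fit, changed sign with other trophectoderm markers (-0.21), classes within sets of barcodes (-0.54), without cells of very high total (-0.28), with thinned cells (-0.0053), without barcodes 33 to 64 of replicate 1 (-0.35) and without the replicate block (-0.17), and ran from -0.18 to 0.42 when 1 library was left out. Pfkp changed sign with other trophectoderm markers (-0.68), classes within sets of barcodes (-0.16), 4000 genes per cell (-0.30) and without cells of very high total (-0.30), and Pfkl without replicate 2 (-0.33 to 1.40 over the libraries). Pkm changed sign with other trophectoderm markers (-0.064), classes within sets of barcodes (-0.23) and without those barcodes (-0.13), and ran from -0.12 to 0.97 when 1 library was left out.

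The differences in the Hk2 and Slc2a3 shares kept their direction in 12 alternatives, at 31.3 to 49.7 and 10.3 to 34.8 points. That of Pfkp was 0.61 points at the median split, 13.6 with thinned cells and -12.7 to 1.43 when 1 library was left out. That of Ldhb was 4.52 at the median split, 2.355 with other trophectoderm markers, 1.92 without cells of very high total, 0.80 with thinned cells, 1.22 without those barcodes and -2.18 to 0.73 when 1 library was left out. The median log2 fold change of all genes was -0.01 with all cells and -0.06 with DESeq2 size factors, and it moved by over 0.1 with equal weights (-0.16), without a filter (-0.12), without the replicate block (-0.17) and without replicate 3 (0.12). The cause was not tested.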
